A study of Mus musculus with 12 samples.

Results

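The 9 genes described here encode the core of transforming growth factor β (TGF-β) signalling: the ligand Tgfb1, the receptor chains Tgfbr1 and Tgfbr2, the signal transducers Smad2, Smad3 and Smad4, and the inhibitors Smad7, Ski and Skil. They were taken by name, and all 9 were found among the 21900 protein-coding genes of the annotation. These genes, and the other gene lists set beside them below, were chosen with earlier results of these data known. The measurement was chromatin immunoprecipitation and sequencing (ChIP-seq) of histone H3 dimethylated at lysine 79 (H3K79me2), a mark that the enzyme DOT1L places along transcribed genes. The CD8 T cells came from male mice of the CreERT2, DOT1L-flox, OT-I strain, with the genotype given as wt;wt;het, which, read in the order of the strain name, leaves Cre and Dot1l unaltered and the cells heterozygous for OT-I, a transgenic receptor for an ovalbumin peptide. Cells were stimulated through CD3 and CD28 and kept until day 8 with 0.1% DMSO as vehicle, with EPZ-5676 or with SGC-0946, both inhibitors of DOT1L, renewed every 2 days. The labelled dose of each inhibitor is 10 mM, a unit that is doubtful for cultured cells. Each treatment had 2 biological replicates, each with an immunoprecipitate and an input library, and yeast chromatin was added before the precipitation. The data hold 1 list of broad peaks per treatment, in which replicates are not separated, with 12578 DMSO, 4443 EPZ and 55 SGC peaks. The spread between replicates and the read depth are therefore unknown, and no difference below has a test.

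TGF-β is secreted in a latent form and, once released, binds the type II receptor chain, which recruits and phosphorylates the type I chain. The type I chain phosphorylates Smad2 and Smad3, which join Smad4 and enter the nucleus to regulate genes. Smad7 blocks the receptor and Ski and Skil block the SMAD complex on chromatin, and transcription of Smad7 and Skil is itself raised by the signal. In CD8 T cells the pathway restrains effector differentiation and proliferation and favours residence in epithelia.

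In vehicle-treated cells, all 9 genes carried H3K79me2 peaks, against 34.5% of all protein-coding genes. Marked here means that a peak overlapped the interval between the gene's ends, if only by 1 base, and fold enrichment is the authors' ratio of a peak over background, compared only within a list. With EPZ-5676, 7 of the 9 genes kept a peak, against 15.9% of all genes and 46.1% of the genes marked in DMSO. The 2 without were the type I receptor gene Tgfbr1 and the SMAD corepressor gene Skil. With peaks limited to a −log10 q of 5 or more, the count in DMSO was 6, without Tgfbr1, Smad2 and Skil, against 17.3% of all genes. The count with EPZ-5676 was then 3, namely Tgfb1, Tgfbr2 and Smad7, against 7.68% of all genes. With SGC-0946, 0 of the 9 genes had a peak, against 0.142% of all genes, so this count does not set the 9 genes apart. Peaks covered 280.6 kb of the 9 genes in DMSO and 56.7 kb with EPZ-5676, which is 20.2% of the DMSO length against 26.6% over all genes marked in DMSO. A gene without a peak is one where none was called, and a level per cell and a share of marked cells cannot be told apart.

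**Figure D1:**
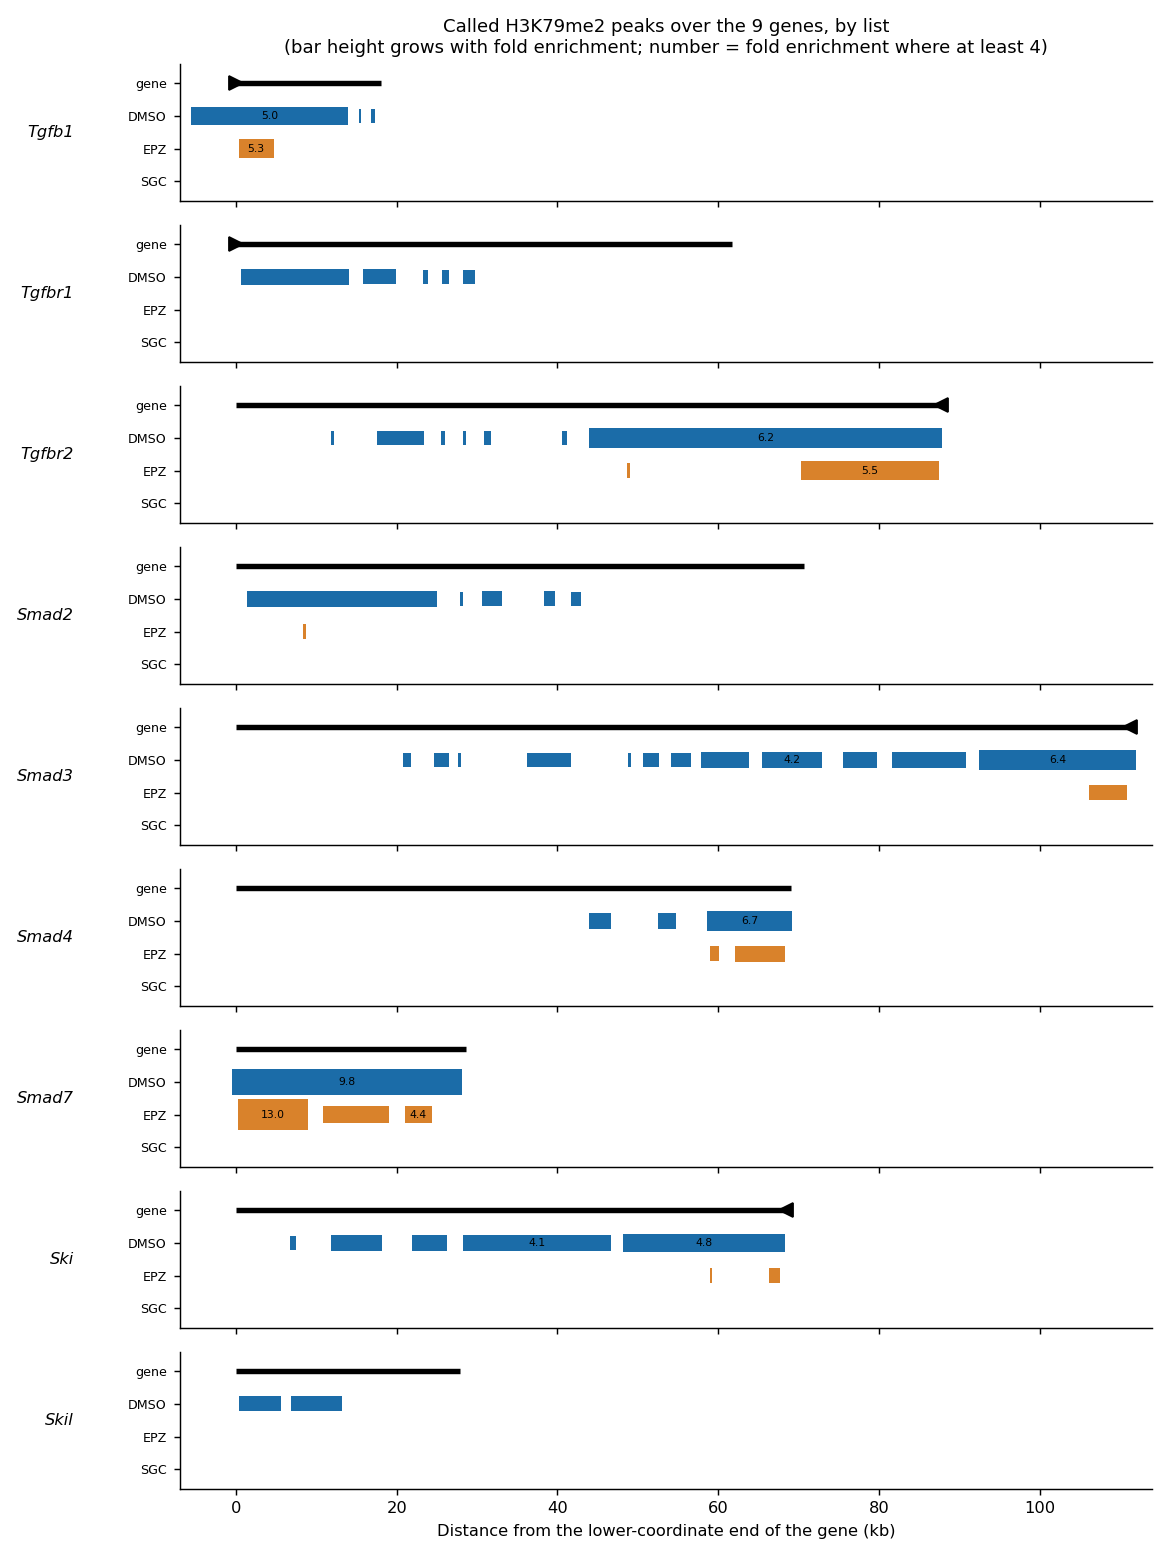
Map of called peaks over each of the 9 genes, by distance in kb from the gene's lower-coordinate end. The black line is the gene, an arrowhead marks the start and direction of transcription where the promoter table gives it, and bars are peaks of the DMSO, EPZ and SGC lists, taller at higher fold enrichment, which is written in the bar where it is at least 4. All 12 EPZ bars lie inside DMSO bars, and the SGC lanes are empty.

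The ligand gene Tgfb1 (chromosome 7, 25687002 to 25705077) was marked over 82.2% of its length in DMSO. Its main DMSO peak, 19.5 kb wide with a fold enrichment of 5.05, began 5557 bases before the start of the gene, so that 5118 of its bases lay in the neighbouring gene B9d2. Narrow peaks of 333 and 564 bases, at 2.73-fold and 2.71-fold, followed near the far end. With EPZ-5676, 1 peak of 4.36 kb remained, from 353 to 4709 bases after the start, at 5.28-fold within its list, and B9d2 had no EPZ peak. EPZ peaks covered 29.3% of the DMSO peak bases in Tgfb1.

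Of the receptor chains, Tgfbr2 had the longer and stronger DMSO domain and kept EPZ peaks, and Tgfbr1 kept none. Tgfbr2 (chromosome 9, 116087695 to 116175363), whose product binds the ligand first, had 7 DMSO peaks over 52.2 kb, led by 1 peak of 44.0 kb, with a fold enrichment of 6.17, that ran from 215 bases before the start to 43.7 kb into the gene. That peak was wider than 99.0% of DMSO peaks. The other 6 lay between 46.5 and 75.8 kb from the start, at 2.62-fold to 3.07-fold. Tgfbr1 (chromosome 4, 47353222 to 47414926), which encodes the kinase that phosphorylates SMADs, had 5 DMSO peaks over 20.5 kb. The highest, 13.5 kb at 3.95-fold, began 579 bases after the start, and the rest were at 2.76-fold to 3.18-fold. With EPZ-5676, Tgfbr2 kept a 17.2 kb peak at 5.47-fold that began 188 bases after the start, and a peak of 431 bases further in, together 33.8% of its DMSO peak bases. Tgfbr1 had 0 EPZ peaks. All 5 Tgfbr1 peaks also overlapped the noncoding RNA gene Gm32435, so the mark there cannot be given to 1 transcript alone.

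The promoter windows of the ligand and receptor genes are shown for how far the DMSO peaks reached into them. The promoter table (RefSeq, GRCm38.p6) held 5 of the 9 genes: Tgfb1, Tgfbr1, Tgfbr2, Smad3 and Ski. Printed below, from 5′ to 3′, are the 250 bases before the start of Tgfbr2 (chr9:116175364-116175613, minus strand), Tgfbr1 (chr4:47352972-47353221, plus strand) and Tgfb1 (chr7:25686752-25687001, plus strand), with bases under a DMSO peak in capitals.
Tgfbr2: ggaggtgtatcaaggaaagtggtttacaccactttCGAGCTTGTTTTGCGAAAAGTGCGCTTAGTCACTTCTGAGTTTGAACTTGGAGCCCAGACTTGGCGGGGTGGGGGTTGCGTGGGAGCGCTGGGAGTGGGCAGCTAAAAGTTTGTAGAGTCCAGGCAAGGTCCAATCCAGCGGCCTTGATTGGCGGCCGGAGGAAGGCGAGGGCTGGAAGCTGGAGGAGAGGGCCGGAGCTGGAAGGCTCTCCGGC
Tgfbr1: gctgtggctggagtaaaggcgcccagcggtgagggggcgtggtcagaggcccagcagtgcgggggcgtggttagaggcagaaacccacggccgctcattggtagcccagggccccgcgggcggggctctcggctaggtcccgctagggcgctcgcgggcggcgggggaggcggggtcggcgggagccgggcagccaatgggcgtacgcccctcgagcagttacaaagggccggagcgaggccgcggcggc
Tgfb1: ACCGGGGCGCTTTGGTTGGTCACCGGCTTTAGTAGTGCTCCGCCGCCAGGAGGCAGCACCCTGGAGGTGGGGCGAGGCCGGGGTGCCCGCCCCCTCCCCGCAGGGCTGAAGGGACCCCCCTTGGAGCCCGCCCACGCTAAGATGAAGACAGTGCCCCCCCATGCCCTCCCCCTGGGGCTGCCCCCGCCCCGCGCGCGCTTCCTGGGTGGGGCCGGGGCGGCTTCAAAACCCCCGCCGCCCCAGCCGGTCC
The Tgfbr2 domain ended inside the window and covered 215 of its 250 bases, the Tgfb1 domain covered all of it, and no base of the Tgfbr1 window was under a peak. The Smad3 window was wholly covered and the Ski window not at all, its domain beginning 111 bases after the start. A start under a DMSO peak was thus seen in 3 of 5 genes, against 38.8% of the 6149 DMSO-marked genes with a listed start. None of the 4 EPZ-marked genes among them had an EPZ peak over its start, against 17.8% of 2831 EPZ-marked genes. Their EPZ peaks began 188 to 771 bases downstream. The median distance from the start to an EPZ peak over those 2831 genes was 373 bases. That median takes in the 17.8% with a peak over the start, so it is not a like measure. The letters CAGAC, a core of SMAD-binding sites, read on either strand, occurred once in the Tgfbr2 window, 160 to 156 bases before the start and under the DMSO peak, and in none of the other 4 windows. They occur in 42.2% of all 27025 promoters of the same length. The 5 windows held 12 (Tgfbr2), 29 (Tgfbr1), 21 (Tgfb1), 22 (Smad3) and 53 (Ski) CG dinucleotides, above the median of 6 over all promoters.

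Among the signal transducers, Smad3 and Smad4 had stronger DMSO peaks than Smad2, and Smad4 kept the largest share of its marked length with EPZ-5676. Smad3 (chromosome 9, 63646766 to 63757994) carried 12 DMSO peaks over 59.2 kb, the most in number and length of the 9 genes. Of all genes marked in DMSO, 0.569% had at least 12 peaks. That share is not matched for gene length: Smad3 is 111.2 kb long, and the 768 DMSO-marked genes of at least 100 kb had a median of 3 peaks. The Smad3 peak at the start was 19.5 kb wide at 6.42-fold. The next 4 peaks, out to 53.4 kb, had 3.33-fold to 4.16-fold, and the 7 beyond them had 2.60-fold to 3.04-fold. With EPZ-5676, a 4.76 kb peak at 3.46-fold remained, 417 bases after the start, which covered 8.04% of the DMSO peak bases.

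Smad4 (chromosome 18, 73634790 to 73703791), the partner shared by all activated SMADs, had 3 DMSO peaks over 15.3 kb. The highest, 10.6 kb at 6.72-fold, lay over the upper-coordinate end of the gene, and the others, of 2.76 and 2.16 kb, had 3.94-fold and 3.77-fold. EPZ peaks of 6.30 kb (3.78-fold) and 1.12 kb (2.98-fold) lay on the highest DMSO peak and covered 48.6% of the gene's DMSO peak bases. Smad2 (chromosome 18, 76241090 to 76311748) had a wide but weak domain in DMSO, 23.6 kb at 3.80-fold, followed by 4 peaks of 341 to 2491 bases at 2.65-fold to 3.14-fold. Its EPZ mark was a peak of 392 bases at 3.13-fold, with a −log10 q of 1.73, 8301 bases from the lower-coordinate end, or 1.35% of its DMSO peak bases.

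The inhibitors spanned the range of the group, from Smad7, the strongest in both lists, to Skil, the weakest in DMSO. Smad7 (chromosome 18, 75367365 to 75395935) lay almost wholly under 1 DMSO peak of 28.6 kb at 9.79-fold, which covered 98.5% of the gene and ranked above 96.3% of DMSO-marked genes by fold enrichment. Inside this domain, in order of coordinate, the EPZ list had 3 peaks. Their widths were 8.71, 8.20 and 3.39 kb, their fold enrichments 12.98, 3.92 and 4.37, and the gaps between them 1913 and 1950 bases. The first lay at the lower-coordinate end, 214 bases inside the gene, and ranked above 97.2% of EPZ peaks. Together they covered 72.1% of the DMSO peak bases, or 43.0% with both lists limited to peaks whose −log10 q reached 5. Smad7 was the 1 gene of the 9 with over 50% of its DMSO peak bases under EPZ peaks.

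Ski (chromosome 4, 155154075 to 155222535) and Skil (chromosome 3, 31095058 to 31122923) encode related corepressors. Ski had 5 DMSO peaks over 49.8 kb, 72.7% of its length, with a peak of 20.2 kb (4.76-fold) nearest the start, then one of 18.4 kb (4.06-fold) and 3 more at 2.88-fold to 3.57-fold. EPZ peaks of 1440 bases at 3.14-fold and 364 bases at 3.42-fold covered 3.62% of it. Skil had 2 DMSO peaks of 5.17 and 6.29 kb at 3.27-fold and 3.19-fold over the lower-coordinate part of the gene, and 0 EPZ peaks. Its highest −log10 q in DMSO was 2.05, the lowest of the 9 genes.

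**Figure D2:**
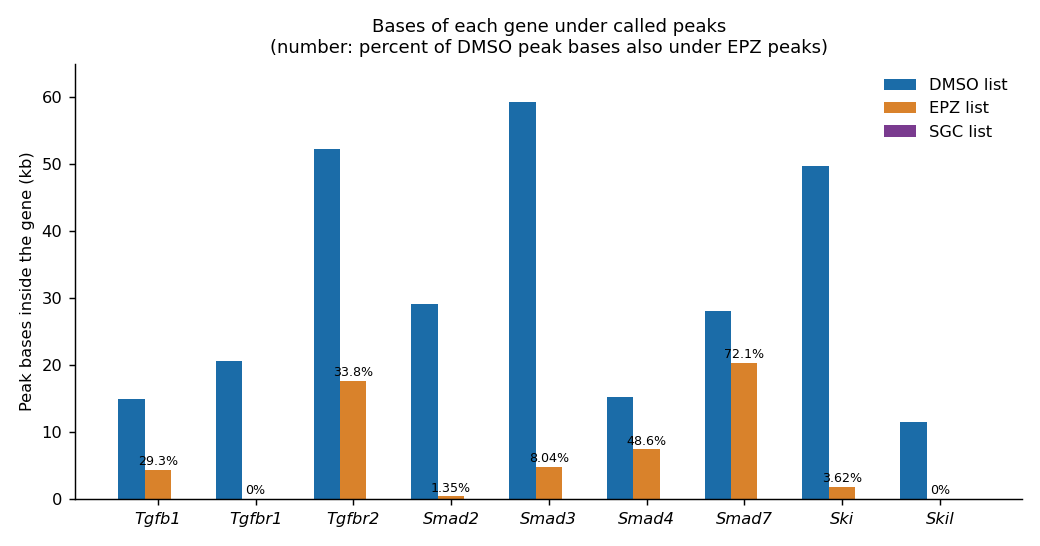
Bases inside each gene under peaks of the DMSO, EPZ and SGC lists, in kb, with the percent of DMSO peak bases also under EPZ peaks written above each EPZ bar. DMSO bars run from 11.5 kb (Skil) to 59.2 kb (Smad3), EPZ bars from 0 (Tgfbr1, Skil) to 20.3 kb (Smad7), and SGC bars are all 0.

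In the 5 genes with a listed start, the DMSO peak nearest the start was also the highest, in 5 of 5, as it was in 84.2% of the 1931 genes with a listed start and at least 2 DMSO peaks. Of the other 4 genes, Smad7 had a single peak, and in Skil the slightly weaker peak was the wider one. The 9 genes together held 43 DMSO peaks, and EPZ peaks lay on 7 of them (16.3%, exact Clopper-Pearson 95% interval 6.81 to 30.7, counting of peaks only), against 26.9% of all DMSO peaks. That interval treats peaks of the same gene as independent, and 12 of the 43 lay in Smad3. It measures no spread between genes or replicates. With both lists limited to a −log10 q of 5 or more, the shares were near each other, at 3 of 6 member peaks (50.0%) against 46.7% of all. Without that limit, the 7 overlapped peaks were the highest DMSO peaks of the 7 EPZ-marked genes, while none of the other 34 DMSO peaks was overlapped. The highest DMSO peak was thus overlapped in 7 of the 9 genes, against 49.9% of all genes marked in DMSO. Over all marked genes, 2.36% of the peaks other than a gene's highest were overlapped. None of the 14 member peaks narrower than 1000 bases was overlapped, against 0.515% of all 3106 such DMSO peaks. The 12 EPZ peaks all lay wholly inside a DMSO peak, as did 98.1% of all EPZ peaks.

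These genes had long stretches under DMSO peaks. Summed over the peaks of a gene, the median length inside it was 28.1 kb for the 9 genes and 4.10 kb for all 7563 genes marked in DMSO. The median highest fold enrichment was 5.05 and 4.47. The widest DMSO peak of a gene had a median of 19527 bases against 4829 bases. Counted singly, the DMSO peaks of the 9 genes had a median width of 2554 bases against 2419.5 bases for all DMSO peaks. The 9 genes are also long, with a median of 68461 bases against 23402 bases. Set beside DMSO-marked genes of like length, by bounds chosen after the values were seen, the 6 members of 60 to 120 kb had a median of 39.4 kb under DMSO peaks against 12.4 kb over 1030 genes. The 3 members of 15 to 30 kb had 14.9 kb against 4.53 kb over 1814 genes. At least 5 DMSO peaks were called in 5 of the 9 genes, and in 5.22% of all genes marked in DMSO, a share not matched for length. The median number of DMSO peaks was 2 in the DMSO-marked genes of 60 to 120 kb and 1 in those of 15 to 30 kb.

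Whether a member had an EPZ peak followed the order of DMSO fold enrichment, with 1 inversion between Tgfbr1 (3.95, no EPZ peak) and Smad2 (3.80, 392 bases). DMSO-marked genes were split by highest DMSO fold enrichment into deciles of equal size. In the decile of Tgfbr1 and Smad2, from 3.69-fold to 4.06-fold, 11.6% had an EPZ peak, and in that of Skil 0.661%. The shares were 58.2% in the decile of Ski, 78.8% in that of Tgfb1, 87.3% in that of Tgfbr2 and Smad3, 91.3% in that of Smad4 and 94.5% in that of Smad7. The share of length kept differed more. Among EPZ-marked genes of their own decile, Tgfbr2 (33.8%), Smad4 (48.6%) and Smad7 (72.1%) lay near the medians of 32.3%, 48.9% and 66.1%. Tgfb1, at 29.3%, lay above its median of 23.6% and within the quartiles of 14.8% and 35.1%. Smad3, at 8.04%, lay below the lower quartile of 22.5%, Ski, at 3.62%, below that of 9.80%, and Smad2, at 1.35%, below that of 4.97%. The deciles were not matched for marked length, in which Smad3, Ski and Smad2 stood at the 98.7, 98.0 and 93.8 percentiles of DMSO-marked genes. On the highest DMSO peak alone, the share of bases under EPZ peaks was 24.4% in Smad3, 8.93% in Ski and 1.66% in Smad2. For that share no value over all genes was computed.

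**Figure D3:**
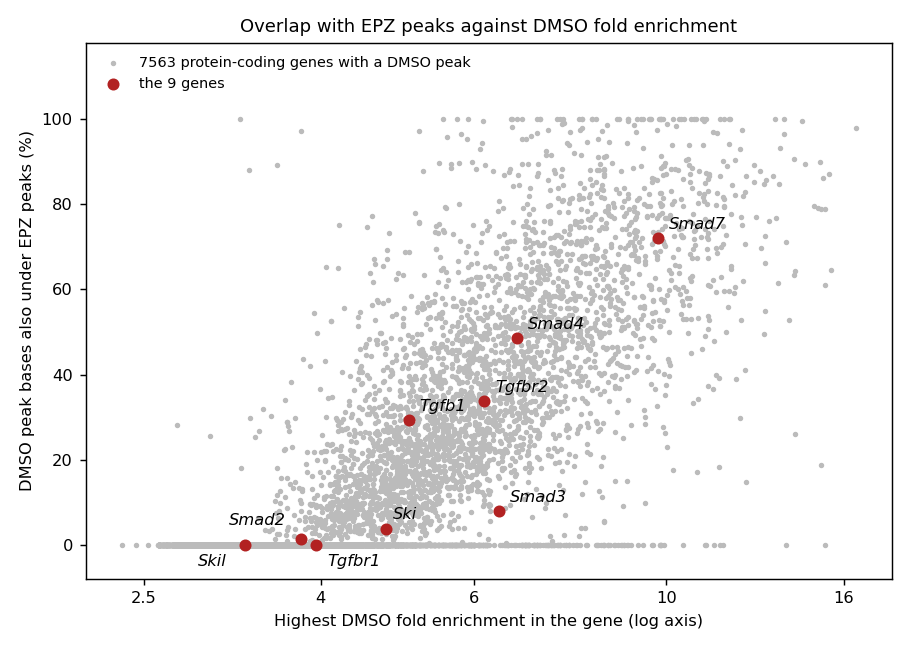
Percent of DMSO peak bases also under EPZ peaks against the highest DMSO fold enrichment (log axis) for the 7563 protein-coding genes with a DMSO peak (grey) and the 9 genes (red). Smad7 sits at 9.79-fold and 72.1%, while Smad3, at 6.42-fold and 8.04%, sits below Tgfbr2 and Smad4.

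For SGC-0946 the counts leave little to compare. The 31 genes with an SGC peak had a median highest DMSO fold enrichment of 10.98 and a lowest of 5.91, and 29 of them were in the highest decile, which holds 757 genes and Smad7. Tgfbr2, Smad3 and Smad4 also lay above that lowest value. Of the 278 genes at or above the DMSO value of Smad7, 22 had an SGC peak. The nearest SGC peak to any of the 9 genes was 8.21 Mb away, from Smad4, and chromosome 9, with Tgfbr2 and Smad3, had none. At the same labelled dose and day, EPZ-5676 left peaks in 7 of the 9 genes and SGC-0946 in 0, with no replicate check of that difference. The same contrast ran through all protein-coding genes, of which 15.9% had an EPZ peak and 0.142% an SGC peak.

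Of the 34 other genes that are the nearest 2 on either side of a member, 15 (44.1%) had a DMSO peak and 7 (20.6%) an EPZ peak, against 34.5% and 15.9% of all protein-coding genes. Tgfbr2 stood between Gadl1, 11.5 kb away, and Rbms3, 397.4 kb away, both without a peak, as was Zcwpw2 beyond Rbms3, while Stt3b, beyond Gadl1, had 5.18-fold in DMSO and an EPZ peak. Of the 4 Smad2 neighbours, Zbtb7c, Ctif and Skor2 had no peak, and Ier3ip1, 618.3 kb away, had a DMSO peak of 4.17-fold. Beside Smad3, Aagab at 2.18 kb had a DMSO peak of 4.11-fold and no EPZ peak, and Smad6, an inhibitory SMAD of the related bone morphogenetic protein pathway, at 195.1 kb, had no peak, nor had Iqch and Lctl. Beside Smad7, Ctif at 35.3 kb and Zbtb7c had none. On the other side, Dym at 80.4 kb had 6 DMSO peaks of at most 3.40-fold and BC031181 had 1 of 4.95-fold, both without an EPZ peak. Beside Ski, Morn1 and Rer1 shared a DMSO peak of 6.58-fold, higher than that of Ski, and an EPZ peak of 5.49-fold, and Faap20 and Prkcz had none. Smad4 lay between EPZ-marked Mex3c (5.18-fold in DMSO) and, past unmarked Elac1, EPZ-marked Me2 (6.28-fold), with unmarked Dcc beyond Mex3c. Skil had unmarked Prkci, Cldn11 and Slc7a14, and Phc3, 125.6 kb away, with 6 DMSO peaks of up to 5.45-fold and an EPZ peak of 7.66-fold. The lower neighbour of Tgfbr1, the collagen gene Col15a1, had no peak, nor had Galnt12 beyond it, and Alg2 and Sec61b, which share a DMSO peak of 4.04-fold, had no EPZ peak. Besides B9d2 and unmarked Tmem91, Tgfb1 had Ccdc97, 6.03 kb away at 3.77-fold without an EPZ peak, and Hnrnpul1, 16.1 kb away, with 9.44-fold in DMSO and an EPZ peak. B9d2 was the 1 protein-coding gene that shared a peak with a member. Noncoding genes overlapped the peaks of Tgfbr1, Tgfbr2 (Gm31292), Smad3 (Gm51710), Smad4 (4930578L24Rik) and Smad7 (Gm20544).

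The rest of the pathway was marked in 46 of 72 genes in DMSO, 30 with EPZ-5676 and 0 with SGC-0946. Over all protein-coding genes the shares were 34.5%, 15.9% and 0.142%, so the SGC count does not set the pathway apart. Other TGF-β superfamily receptors were the emptiest class: 1 of 11 was marked, the activin type I receptor gene Acvr1b, at 3.12-fold and without an EPZ peak, while Tgfbr3, Eng, Acvr2a, Bmpr1a and Bmpr2 were among the 10 without a peak. Of 4 other SMAD genes, Smad1 and Smad5, transducers of bone morphogenetic protein signals, had DMSO peaks of 3.17-fold and 3.46-fold and no EPZ peak, and Smad6 and Smad9 had none. Of 11 genes for ligands and their activation, 4 were marked, near the share of all genes, and all 4 had an EPZ peak. They were Nrros, at 11.2-fold in DMSO, and Lrrc32 at 7.23-fold, which encode anchors of latent TGF-β, Furin, the protease that cleaves its precursor, at 5.88-fold, and the integrin subunit gene Itgav at 4.32-fold. Tgfb2, Tgfb3 and the latent TGF-β binding protein genes Ltbp1, Ltbp3 and Ltbp4 had no peak.

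The remaining classes of pathway genes were marked more often in DMSO. Over all protein-coding genes, the shares to set beside these counts are 34.5% in DMSO and 15.9% with EPZ-5676. Of 16 regulators of receptors and SMADs, 13 had a DMSO peak and 6 an EPZ peak. Usp15, a deubiquitinase, had the highest DMSO value at 7.36-fold with an EPZ peak, and the ubiquitin ligase gene Smurf1 the lowest, at 3.32-fold over 8 peaks without one. Of 16 nuclear cofactors, 14 were marked in DMSO and 12 with EPZ-5676, from the T cell transcription factor gene Runx3, at 11.3-fold in DMSO with 74.2% of its DMSO peak bases under EPZ peaks, to Tgif2, at 3.61-fold without an EPZ peak. All 6 genes of the non-SMAD branch were marked and 4 had an EPZ peak, with Tab2 highest at 6.76-fold and Tab1, at 4.16-fold and without an EPZ peak, lowest. Of 8 response genes 6 were marked and 4 had an EPZ peak. Id2 was highest at 10.8-fold and Id3, without an EPZ peak, lowest at 4.12-fold, and Itgae, which encodes the integrin CD103, had 8.17-fold through a peak shared with another gene. Id1 and Cdkn2b had no peak.

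**Figure D4:**
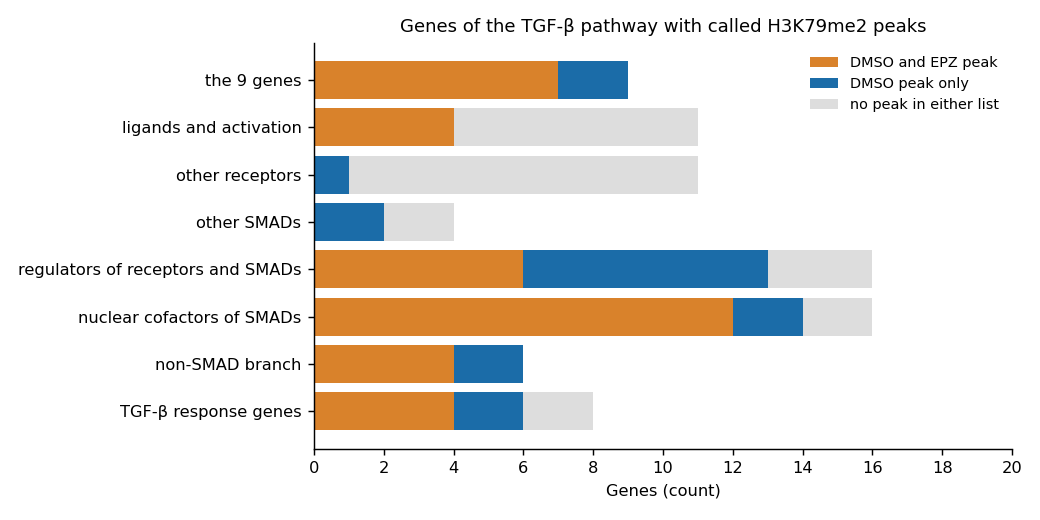
Number of genes with peaks in both the DMSO and EPZ lists (orange), in DMSO only (blue) or in neither (grey), for the 9 genes and 7 classes of other TGF-β pathway genes. All 9 genes have a DMSO peak, against 1 of 11 other receptors.

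Beside other cytokine pathways the 9 genes had the lowest typical DMSO value, a difference that could not be tested. Common gamma chain receptor and JAK genes were marked in 10 of 12 cases, 8 of them with an EPZ peak, and STAT and SOCS genes in 14 of 15, 10 with an EPZ peak. Of all protein-coding genes, 34.5% had a DMSO peak and 15.9% an EPZ peak. The median highest DMSO fold enrichment of marked genes was 7.27 and 5.59 in those lists and 5.05 in the 9 genes. The median share of DMSO peak bases under EPZ peaks, over genes marked in both, was 50.9%, 30.3% and 29.3%, against 34.3% for all such genes.

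Across the DMSO and EPZ lists, the gene most like each member, by the largest difference between their percentiles in 4 measures (peak bases in the gene and highest fold enrichment, in each list), was Ptpn22 for Smad7 (1.14 percentile points), Ubac2 for Tgfbr2 (1.43), Elavl1 for Smad4 (2.37) and Znrf1 for Smad3 (2.30). Ptpn22 had 10.4-fold over 30.2 kb in DMSO and 15.0-fold over 17.7 kb in EPZ. For Tgfb1 it was Akirin2 (3.50), for Ski Peak1 (3.15) and for Smad2 Frs2 (5.00). Among genes with no EPZ peak it was Sec24b for Tgfbr1 (1.22) and Neurl1b for Skil (1.12). All genes without an EPZ peak are tied in the EPZ measures. The distances for Tgfbr1 and Skil therefore rest on the DMSO measures alone and are not comparable with the others.

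The cell type in the labels was checked against marker genes. All 11 markers listed for CD8 T cells had DMSO and EPZ peaks. Among them were Cd8a at 10.6-fold, Cd8b1 at 6.89-fold, Cd3e at 6.08-fold and Lck at 11.6-fold. Only Cd8a and Cd8b1 of the 11 are particular to CD8 cells, and the others are genes of T cells or leukocytes more widely. Cd3d and Cd3g also shared a peak. In contrast, 0 of 25 markers of CD4 T, B, NK, myeloid, fibroblast, endothelial and epithelial cells had a peak in any of the 3 lists. Over all protein-coding genes, 34.5% had a DMSO peak, 15.9% an EPZ peak and 0.142% an SGC peak, so the SGC count does not set these markers apart. Whether a small share of other cells was present was not tested.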

How the data were processed

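H3K79me2 ChIP-seq lists of 3 treatments were used. Per the submitters' processing notes, the genome builds were mm10 (GRCm38) and sacCer3, and the tools were MACS2 2.2.7.1, BWA 0.7.17-r1188 and Picard. How replicates, inputs and yeast reads were used, and the calling thresholds, were not given in the sources used here. The deposited fold enrichment is a ratio over background, and each peak also has a deposited −log10 q. The deposited score was not used.

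Peaks were laid over RefSeq gene intervals (GRCm38.p6) with Python 3.11.15 and pandas 2.3.3, with overlap of at least 1 base. The overlap code was tested on simulated intervals. Starts came from the promoter table, the outermost where a gene has several. Intervals are exact Clopper-Pearson and cover counting only. All 9 members are named, with the nearest 2 genes on each side, the most similar gene, and from each class of other pathway genes the highest and lowest DMSO values with, where possible, 1 gene with and 1 without an EPZ peak. Genes named beyond this rule, among them those without a peak and the marker genes, were picked after their values were seen. Members and lists were chosen with earlier results of these data known. One gene of the pathway lists is not reported here and is left out of the counts.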

Additional observations from a re-analysis of the deposited data

How the results depend on the processing

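With peaks kept only where −log10 q reached 5, 6 of the 9 genes were marked in DMSO, all but Tgfbr1, Smad2 and Skil, and 3 instead of 7 with EPZ-5676 (Tgfb1, Tgfbr2 and Smad7), beside 17.3% and 7.68% of all genes. Under that limit the share of members' DMSO peaks under an EPZ peak was 50.0% (3 of 6; 46.7% over all DMSO peaks). The median share of DMSO peak bases kept was 39.3%, over those 3 genes in place of 7, while that of Smad7 fell to 43.0%. With a DMSO peak counted only if EPZ peaks lay over 50% of it or more, the first share was 4.65%, against 8.48% of all DMSO peaks. Counting whole peaks lowered the median kept to 21.3%. Giving each peak to 1 gene, extending genes by 5 kb and joining peaks within 1 kb left the counts of 9, 7 and 0 genes, or of 43 and 12 peaks, as they were. No paired analysis was possible because each treatment has 1 list that does not separate replicates, and for the same reason no replicate could be left out. Read depth is unknown, which limits every statement that a gene had no peak.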
